A study of Mus musculus with 6 samples.

Results

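Vascular endothelium, the cells that line blood vessels, was described in single-cell RNA counts from the cardiogenic region of the mouse embryo at E10.5, in midgestation. Cells were chosen by their own counts. A barcode was taken as a vascular endothelial cell when 2500 or more genes were detected in it, no more than 10% of its unique molecular identifiers (UMIs) came from mitochondrial genes, and it had at least 4 of 6 endothelial genes (Pecam1, Cdh5, Kdr, Emcn, Egfl7 and Esam) at 2 or more UMIs each and a summed count below 4 for Nfatc1 and Npr3, genes of the endocardium. Of 53362 barcodes, 35962 passed the first 2 limits, and 534 of these were vascular endothelial cells. Because measured counts of the same cells chose them, every comparison below is a description with no test of significance.

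The labels list 6 samples of wild type C57BL/6 embryos, 3 from vehicle-pretreated, normal glycemic mothers and 3 from hyperglycemic mothers pretreated with STZ (streptozotocin, a toxin of insulin-producing cells). All fathers were normal glycemic. The deposited barcodes end in 1 to 6, which separates 6 libraries, but nothing in the files pairs a library with a sample or a treatment, so vehicle and STZ were not compared and libraries are given by number only. The descriptions in the labels name a chromatin assay, whereas RNA is named in the titles, the library source and the kit, and the values were read as RNA counts.

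The first vessels form from mesodermal precursors under VEGF signalling through Kdr, and then take on arterial or venous character. Notch signalling and SOXF factors favour arterial genes such as Gja4, Gja5, Hey1, Dll4 and Efnb2, while the nuclear receptor Nr2f2 (COUP-TFII) favours venous genes such as Ephb4, Nrp2 and Aplnr. The endocardium, the endothelium inside the heart, shares the general endothelial genes with vessels but also uses Nfatc1, Npr3 and GATA factors.

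The 6 libraries held 4903 to 7136 passing barcodes each, from 200462921 to 248426458 UMIs per library. The median vascular endothelial cell had 37787.5 UMIs, against 41392 in the barcodes that met the same endothelial rule but had 4 or more Nfatc1 and Npr3 UMIs. In all passing barcodes other than vascular endothelial cells, which include the latter barcodes, it was 32697. Of the 534 cells, 91 (17.04%) carried a barcode sequence that also occurred in another library, from 4.82% in library 1 to 33.3% in library 4. In 86 of the 91, every other copy had at most 0.1 of the UMIs. The other copy also passed the filters in 5 and met the vascular rule in 0. Markers of another cell type (at least 3 genes of a list, or 2 of a list of 3, at 2 or more UMIs) were present in 65 of the 534 cells. By list these were mesenchyme in 25, cardiomyocyte in 17, erythroid in 15, myeloid and megakaryocyte in 11, epithelium in 9, epicardium in 4 and neural in 0 (which allows up to 0.562%). Ptprc and C1qa, which define leukocytes and macrophages, had no UMI.

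Vascular endothelium made up 1.48% of passing barcodes (exact 95% interval 1.36 to 1.62%). Such intervals here cover counting error only. The share was 1.29% in library 1, 1.72% in library 2, 1.10% in library 3, 1.53% in library 4, 1.85% in library 5 and 1.29% in library 6, from 83, 103, 54, 87, 132 and 75 cells. Library 3 was lowest and library 5 highest, and their intervals (0.828 to 1.43% and 1.55 to 2.19%) did not overlap. The endothelial barcodes with 4 or more Nfatc1 and Npr3 UMIs, called Nfatc1/Npr3-high endothelium here, numbered 1495 (4.16%) and varied more, from 2.39% in library 3 to 6.94% in library 1. Vascular cells were therefore 26.3% of all 2029 endothelial barcodes, but 15.7% in library 1 and 36.5% in library 5.

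**Figure D1:**
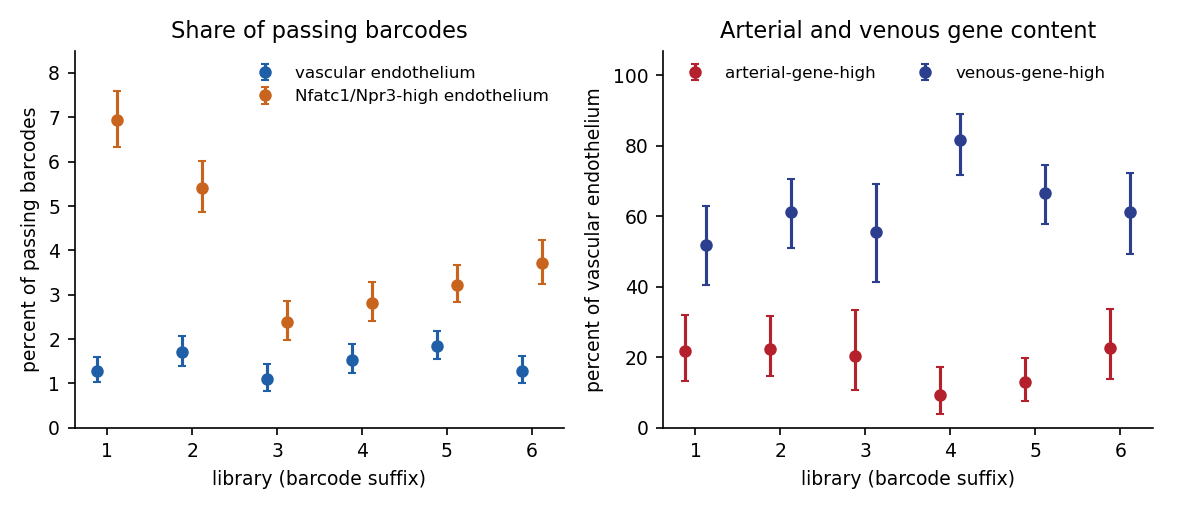
Left: percent of passing barcodes (y axis) that were vascular endothelium or Nfatc1/Npr3-high endothelium in each library (x axis). Right: percent of vascular endothelial cells that were arterial-gene-high or venous-gene-high. Points are shares and bars exact 95% intervals. Vascular shares ran from 1.10 to 1.85%, Nfatc1/Npr3-high shares from 2.39 to 6.94%, and venous-gene-high cells were the larger class in every library.

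The rule itself fixed that the 6 chosen genes were high. Kdr, the main VEGF receptor, stood at 229 counts per 1000000 UMIs (CPM, from the summed counts of a group) in vascular endothelium and 15.4 CPM in all other passing barcodes. Of the passing barcodes with fewer than 4 Nfatc1 and Npr3 UMIs, 325 had all 6 genes, 100 had 5, 109 had 4 and 132 had 3, just outside the rule. Cldn5, a tight junction gene the rule did not use, was 429, 480, 278 and 76.7 CPM in these groups. The platelet gene Pf4 ran the other way, at 1.73, 167, 3300 and 2868 CPM, and Hbb-y, an embryonic globin, was 72.0 CPM at 4 genes but 3587 CPM at 3. Nearly all of the Pf4 RNA at exactly 4 genes came from 10 cells that carried blood genes, and without them it was 4.08 CPM. Hbb-y was higher, at 1099.5 CPM, in cells with all 6 genes.

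Endothelial genes outside the rule went with the label. A gene was counted as higher when it had at least 20 CPM in the higher group and was at least 2-fold higher in the pooled counts and in each library. By that count, 434 of 6410 genes (6.77%) were higher in vascular endothelium than in all other passing barcodes, and 353 of 6572 (5.37%) were lower. Of 15 endothelial genes not in the rule, 14 were higher, with a median ratio of 13.0 against 0.979 over all genes at 10 CPM or more. The fifteenth, Robo4, a receptor of endothelial cells, was at 16.9 against 0.327 CPM and so below the 20 CPM limit.

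Cldn5 showed the widest gap of the 15. Its level over the 6 libraries was 348 CPM at the lowest, 421 CPM at the median and 467 CPM at the highest, against 2.55 to 5.46 CPM in other passing barcodes. The pooled ratio was 93.7 (95% interval 90.7 to 96.8). Tie1 and Tek, receptor genes of the angiopoietin pathway, were 81.2 against 6.14 CPM and 168 against 20.4 CPM. Cd34, a sialomucin of endothelial and blood progenitor cells, was 285 against 11.95 CPM. The endothelial ETS factor Erg was 70.6 against 3.78 CPM. Fli1, another ETS factor, showed the smallest ratio of the 15, 3.93 (3.84 to 4.03). In none of these genes did the libraries' levels in vascular endothelium overlap those in other passing barcodes.

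**Figure D2:**
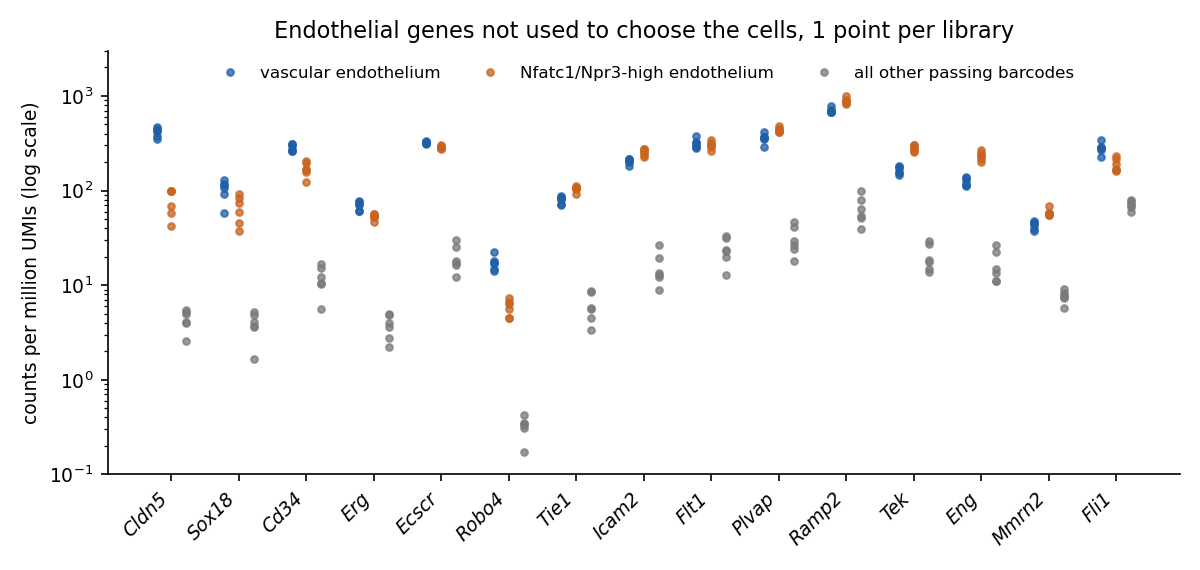
CPM on a log axis (y) for the 15 endothelial genes that the rule did not use (x), 1 point per library, in vascular endothelium, Nfatc1/Npr3-high endothelium and all other passing barcodes. Vascular points lie above the other passing barcodes, which include the Nfatc1/Npr3-high endothelium, for every gene. Cldn5 also lies above the Nfatc1/Npr3-high endothelium, at 348 to 467 CPM against 42.2 to 98.7 CPM.

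The 15 genes with the highest ratio over all other passing barcodes, outside the rule, were D030007L05Rik, Kcne3, Cldn5, 4930542D17Rik, Stab2, Col15a1, Aplnr, 2610203C22Rik, Zfp366, Fam167b, Clec1b, Mmrn1, Gimap4, Pcdh12 and Adgrg3. Kcne3 (ENSMUSG00000035165, chr7:100176502-100184869, plus strand of GRCm38), an accessory subunit of potassium channels, was 42.7, 56.6 and 95.02 CPM at the lowest, median and highest library, against at most 0.707 CPM in the summed other passing barcodes of any library. That sum mixes many cell types, and the Nfatc1/Npr3-high endothelium within it stood at 7.40 CPM. Its pooled ratio was 116 (106 to 127). Stab2 (chr10:86841198-87008025, minus strand), a scavenger receptor that binds hyaluronan, was 7.44, 30.0 and 48.8 CPM, with a ratio of 84.8 (75.5 to 95.4). Stab2 varied more between libraries than Kcne3, but its lowest library still exceeded the highest of the summed other passing barcodes (0.633 CPM) and the pooled Nfatc1/Npr3-high endothelium (2.99 CPM). Aplnr (chr2:85136225-85139923, plus strand), the apelin receptor, was 82.0, 106.03 and 142 CPM against at most 1.99 CPM in the same sum. Col15a1 (chr4:47208161-47313167, plus strand), a collagen of vascular basement membranes, was 63.8, 72.5 and 95.8 CPM against at most 1.201 CPM in that sum. Clec1b, a C-type lectin receptor also known from platelets, was 144, 183 and 231 CPM, and stayed at 167 CPM pooled without the 11 cells that carried blood genes, described further on.

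Promoter sequences were looked at because ETS factors, which bind a GGAA core, were among the genes high in these cells. RefSeq promoters of GRCm38.p6, each from 250 bases before to 50 after a start that RefSeq gives, which can differ from the gene starts printed above, were at hand for 10 of the 15 leading genes, and 3 held AGGAAGT or CGGAAGT on either strand. They are shown on the gene's strand with the match in capitals, which in all 3 reads as the reverse complement of a searched motif.

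Kcne3, chr7:100176420-100176719, plus strand: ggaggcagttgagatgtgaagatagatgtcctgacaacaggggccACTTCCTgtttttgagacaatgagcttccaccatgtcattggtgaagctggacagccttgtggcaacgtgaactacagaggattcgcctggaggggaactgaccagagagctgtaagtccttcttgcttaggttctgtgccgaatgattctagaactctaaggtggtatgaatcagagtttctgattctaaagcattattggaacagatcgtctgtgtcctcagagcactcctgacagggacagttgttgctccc
Col15a1, chr4:47207762-47208061, plus strand: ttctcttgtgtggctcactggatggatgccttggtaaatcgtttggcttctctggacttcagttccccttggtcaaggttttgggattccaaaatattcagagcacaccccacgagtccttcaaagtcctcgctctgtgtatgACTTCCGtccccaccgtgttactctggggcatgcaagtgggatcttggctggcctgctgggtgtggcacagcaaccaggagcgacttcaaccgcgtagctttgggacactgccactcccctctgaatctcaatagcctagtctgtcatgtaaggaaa
Fam167b, chr4:129578531-129578830, minus strand: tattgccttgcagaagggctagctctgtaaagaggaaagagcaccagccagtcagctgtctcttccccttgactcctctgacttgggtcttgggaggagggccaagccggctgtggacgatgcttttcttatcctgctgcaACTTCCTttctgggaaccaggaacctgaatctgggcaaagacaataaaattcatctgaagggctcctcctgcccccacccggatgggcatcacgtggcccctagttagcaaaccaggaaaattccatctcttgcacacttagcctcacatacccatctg

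Kcne3 has 2 RefSeq promoters, and the match lies in the first. Over the 319 genes higher in vascular endothelium that had a RefSeq promoter, 17.9% held a match to either motif. The share was 25.2% of the 5141 matched genes at 20 CPM or more in these cells and 17.01% of all 27025 RefSeq genes. The motifs differed, with AGGAAGT in 14.1, 9.98 and 10.7% of these sets and CGGAAGT in 3.76, 17.5 and 7.20%. Of the 265 matched genes lower in vascular endothelium than in other passing barcodes, 5.28% held AGGAAGT and 1.89% CGGAAGT, and of the 94 lower than in Nfatc1/Npr3-high endothelium 14.9 and 1.06%. The differences between these shares were not tested. A match is a description of the sequence, not of a bound site.

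Transcription factors of the ETS, SOX and FOX families were high as a group against all other passing barcodes. Of 15 listed, 10 were counted as higher than in those barcodes and 0 as lower. Over all genes 6.77% were counted as higher and 5.37% as lower. Sox17, a SOXF factor, was 92.7, 112 and 130 CPM over libraries against at most 4.43 CPM in the summed other passing barcodes, and Sox18, its relative, was 58.3, 111 and 128 CPM against at most 5.15 CPM. Both were also high in the Nfatc1/Npr3-high endothelium, at 56.3 and 61.7 CPM. Etv2, the ETS factor that starts the endothelial and blood lineages, was 32.4, 49.0 and 122 CPM, and 54.1 CPM pooled against 5.81 CPM. Etv2 was uneven between cells as well, with 8.12% of its UMIs in a single cell. Foxc1 was 21.0 against 23.3 CPM and did not differ at this fold. The list as a group did not separate vascular from Nfatc1/Npr3-high endothelium. Of 14 measured genes 0 was counted as higher than there and 1 as lower, and 9 had a ratio above 1. Over all genes 0.64% were counted as higher and 2.01% as lower in that comparison.

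Vascular signalling lists held several higher genes each, against 6.77% higher and 5.37% lower over all genes. Those shares are of genes at 20 CPM or more in the higher group, while lists take genes at 10 CPM or more. Of 9333 genes at 10 CPM or more, 434 were higher and 353 lower. In the VEGF and angiopoietin list, 6 of 12 measured genes were higher and 0 lower, although 4 were at least 2-fold lower in the pooled counts. The 6 were all receptors (Flt1, Flt4, Nrp2, Tek, Tie1 and the semaphorin receptor Plxnd1). Flt4, the receptor for VEGF-C, was 64.5 against 2.31 CPM. In the Notch list 3 of 10 were higher, namely the receptor Notch1 (58.0 against 13.3 CPM), the target Nrarp (22.4 against 4.63 CPM) and the fringe glycosyltransferase Mfng (50.7 against 2.79 CPM), 0 was lower, and 3 were at least 2-fold lower in the pooled counts. Against Nfatc1/Npr3-high endothelium 0 of 12 Notch genes was counted in either direction, with a median ratio of 0.638 and 2 of 12 above 1. In that comparison 0.64% of all genes were counted as higher and 2.01% as lower, so 0 of 12 is near those shares. In the BMP and TGF-beta list 4 of 15 were higher than in all other passing barcodes, namely the receptors Acvrl1, Eng and Tgfbr2 and the ligand Tgfb1. Bmpr1a, a type I BMP receptor, was lower, at 25.6 against 114 CPM.

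Further lists are read against the same shares over all genes. Basement membrane genes were counted as higher in 7 of 14, with Col4a1 at 392 against 101 CPM and the laminin gene Lama4 at 84.8 against 15.7 CPM. Against Nfatc1/Npr3-high endothelium 2 of 13 were higher and 1 lower, with a median ratio of 0.862, where 0.64 and 2.01% of all genes were counted. Of the genes known to respond to blood flow, 4 of 7 were higher, among them Klf2 (256 against 31.5 CPM) and the nitric oxide synthase Nos3 (31.0 against 4.36 CPM). Flow genes were not higher than in Nfatc1/Npr3-high endothelium, where 0 of 7 had a ratio above 1, 1 was counted as lower and the median ratio was 0.757, with Klf2 at 256 against 338 CPM and Nos3 at 31.0 against 64.5 CPM. Retinoic acid genes were counted as higher in 0 and lower in 2 of 9, the binding proteins Crabp1 (40.9 against 326 CPM) and Crabp2 (14.6 against 186 CPM). Hox genes were higher in 0 and lower in 3 of 6, namely Hoxa2, Hoxb2 and Hoxb3. Cell cycle genes (13 measured) and glucose and redox genes (13 measured) had 0 counted in either direction, which is near the share over all genes for lists of this size. Within the latter, Slc2a1, the main glucose transporter of embryonic cells, was 132 against 120.0 CPM, and Txnip, a glucose-responsive gene, was 72.8 against 28.9 CPM but not 2-fold in every library.

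Vascular endothelium differed from Nfatc1/Npr3-high endothelium in far fewer genes. Of 6410 genes, 41 (0.64%) were higher in the vascular cells, and of 6558, 132 (2.01%) were lower. The general endothelial genes did not separate the 2 groups, since the 15 outside the rule had a median ratio of 1.02 and only Cldn5 was counted. Cldn5 was 414 against 72.6 CPM, a ratio of 5.70 (5.51 to 5.90), and its 6 library levels did not overlap. Venous genes were among those that were higher. Stab2 was 31.4 against 2.99 CPM (ratio 10.51, 8.999 to 12.3), Aplnr 108.1 against 15.98 CPM (6.77, 6.30 to 7.27) and Nrp2, a receptor for semaphorins and VEGF-C, 165 against 38.1 CPM (4.34, 4.13 to 4.56). These were 3 of the 8 listed venous genes used for classing cells further on, and 0 of the 8 was lower by the rule, although Lyve1, a hyaluronan receptor, was 4.35 against 12.9 CPM. Of 9 other venous and capillary genes 0 was counted in either direction, with a median ratio of 1.36. Nr2f2 itself was 194 against 148 CPM, and the libraries' ranges (157 to 252 and 124 to 188 CPM) overlapped.

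Other leading genes on the vascular side were Kcne3 at 60.7 against 7.40 CPM, Gpr183, a receptor for oxysterols, at 25.9 against 3.71 CPM, and Hpgd, which degrades prostaglandins, at 70.0 against 11.1 CPM. Mdga2, Abcc9 (a subunit of ATP-sensitive potassium channels), Tafa2, D030007L05Rik and Col15a1 completed the 10 highest ratios. The count itself required each of these 10 to be higher in 6 of 6 libraries.

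Of the 15 endocardial genes on the list, 9 were lower in vascular endothelium, 0 was higher, and the median ratio was 0.236 against 0.983 over all genes. Over all genes 2.01% were counted as lower. Gata4, a cardiac zinc finger factor, was 27.4, 35.2 and 66.1 CPM over libraries in vascular cells and 149, 177 and 193 CPM in Nfatc1/Npr3-high cells, with no overlap. Nrg1, the neuregulin signal from endocardium to myocardium, was 35.4 against 232 CPM. Adgrg6, an adhesion G protein-coupled receptor, was 23.2 against 204 CPM. Outside the list, the cyclin-dependent kinase inhibitor Cdkn1c was 575 against 6001 CPM, 10.4-fold lower (10.3 to 10.6). The Iroquois factor Irx5 was 5.96 against 135 CPM, 22.6-fold lower (19.2 to 26.9). Wnt4, a WNT ligand, was 5.75 against 73.5 CPM and Corin, the protease that activates natriuretic peptides, 3.55 against 44.9 CPM. Hs3st4, Car4, Gldc, Gm44516 and the chemokine scavenger receptor Ackr3 completed the 10 lowest ratios with Adgrg6.

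Arterial genes were not higher in the vascular cells as a list. Of the 8 listed arterial genes 0 was higher and 2 were lower than in Nfatc1/Npr3-high endothelium. Over all genes 0.64% were counted as higher and 2.01% as lower, so 0 higher is near that share for a short list. The median ratio of the 8 was 0.623, and 1 of 8 was above 1. Gja4, the gap junction protein connexin 37, was 16.05, 68.2 and 90.9 CPM over libraries against 144, 187 and 209.5 CPM, and Bmx, a kinase of arterial endothelium and endocardium, was 6.80 against 51.4 CPM. Sox17 was the exception in direction, at 109.5 against 56.3 CPM, just short of 2-fold. Of 15 BMP and TGF-beta genes 2 were lower and 0 higher, with a median ratio of 0.581. The inhibitory Smad6 was 36.7 against 132 CPM and Bmpr1a 25.6 against 92.7 CPM.

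Sums and shares over cells changed gradually across the limit between the groups. They cannot tell intermediate cells from a mixture of distinct cells. The 534 vascular cells held 176 with no Nfatc1 or Npr3 UMI, 138 with 1, 119 with 2 and 101 with 3, and just beyond the limit were 169 cells with 4 to 5. A cell carrying at least 3 of 8 endocardial genes (Gata4, Gata5, Gata6, Hapln1, Tmem100, Irx6, Adgrg6 and Cdh11) at 2 or more UMIs was found in 9.09, 21.0, 26.9 and 41.6% of these 4 vascular groups, and in 53.3% just beyond. It was 98.3% at 20 or more Nfatc1 and Npr3 UMIs. Among all vascular cells it was 119 of 534 (22.3%), against 1298 of 1495 (86.8%) in the Nfatc1/Npr3-high cells. Cldn5 went from 499.7 CPM with no Nfatc1 or Npr3 UMI to 295 CPM at 3 and 33.4 CPM at 20 or more, and Aplnr from 115 to 95.8 and 4.98 CPM. Tmem100, which is induced by BMP signalling in endothelium, went from 1.62 to 30.1 and 79.9 CPM. The median UMIs per cell also differed between these groups, from 35233 at none to 42298 at 3, 34182 at 4 to 5 and 48268 at 20 or more, and their part in the gradient was not tested.

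**Figure D3:**
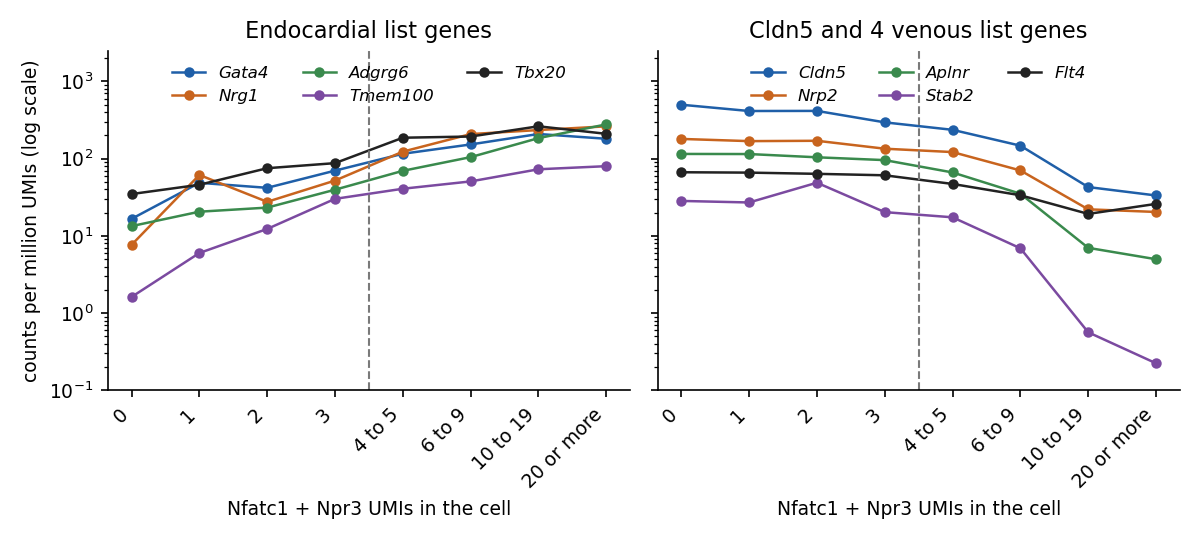
CPM on a log axis (y) against the number of Nfatc1 and Npr3 UMIs in the cell (x), summed over endothelial cells of all libraries. The dashed line is the limit of the rule, with vascular endothelium to its left. Endocardial list genes are higher to the right and Cldn5 and the 4 plotted venous list genes are lower, with Gata4 from 16.6 to 181 CPM and Cldn5 from 499.7 to 33.4 CPM. Of the venous list genes not plotted, Lyve1 went from 3.38 to 19.1 CPM and Ephb4 from 46.3 to 45.2 CPM.

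Within vascular endothelium, the 8 venous and 8 arterial genes each ranged from rare to widespread. At 2 or more UMIs, Nr2f2 was present in 72.7% of the 534 cells, Nrp2 in 68.4%, Aplnr in 58.99%, Flt4 in 56.7%, Ephb4 in 53.7% and Dab2 in 49.8%, but Stab2 in 16.5% and Lyve1 in 3.56%. Of the arterial genes, Sox17 was present in 62.2% and Efnb2 in 50.6%, and the others were rarer, with Unc5b in 24.3%, Gja4 in 23.6%, Hey1 in 17.98%, Dll4 in 13.5%, Bmx in 6.74% and Gja5 in 3.93%. Nr2f2 was present in 32.5% of the 126 cells with Gja4 and 85.0% of the cells without it. Sox17 did not divide cells this way, since Nr2f2 was present in 74.7% of the cells with Sox17 and 69.3% of those without. Efnb2, the arterial ephrin, and Ephb4, its venous receptor, overlapped widely, with Ephb4 in 61.1% of the cells with Efnb2 and 46.2% of those without. At 1 or more UMIs Gja4 was found in 34.5% of vascular cells (18.5% with every cell thinned to 5000 UMIs) against 0.523% of 2487 cardiomyocyte-marked barcodes with no endothelial gene, which have a median of 37257 UMIs and measure free RNA for genes that heart muscle lacks. Of the 16 class genes, 8 were common in those barcodes, with Unc5b in 65.6%, Nr2f2 in 63.2%, Efnb2 in 45.6%, Dab2 in 41.8%, Nrp2 in 33.8%, Hey1 in 33.5%, Ephb4 in 28.6% and Gja5 in 13.1%, so the presence of any of these alone does not mark endothelium here. Unc5b, Hey1 and Gja5 were in no more of the vascular cells (42.5, 30.9 and 6.93%). The remaining 8 were in at most 1.17% of those barcodes.

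Cells were classed by the number of listed genes at 2 or more UMIs. A cell was arterial-gene-high with at least 3 of Gja5, Gja4, Sox17, Hey1, Dll4, Efnb2, Bmx and Unc5b and more of these than of the venous genes, and venous-gene-high with at least 3 of Nr2f2, Ephb4, Nrp2, Aplnr, Flt4, Lyve1, Dab2 and Stab2 and more of these than of the arterial genes. Such classes are ranges of a count and not cell types. Arterial-gene-high cells were 94 of 534 (17.6%, exact 95% interval 14.5 to 21.1%), venous-gene-high cells 341 (63.9%, 59.6 to 67.9%), and 99 were neither.

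Venous-gene-high cells were the larger class in all 6 libraries. Their share was 51.8, 61.2, 55.6, 81.6, 66.7 and 61.3% in libraries 1 to 6, and the arterial-gene-high share 21.7, 22.3, 20.4, 9.20, 12.9 and 22.7%. Library 4 stood apart with the highest venous and lowest arterial share, from 71 and 8 cells, and it also had the highest share of cells whose barcode sequence occurred in another library. The summed CPM of the 8 venous genes over that of the 8 arterial genes showed the same library as highest, at 4.28 against 1.59 to 2.53 in the other 5. In pooled counts the venous sum was 678 CPM in vascular endothelium, 343 CPM in Nfatc1/Npr3-high endothelium and 293 CPM in all passing barcodes other than vascular endothelium. The last group includes the Nfatc1/Npr3-high endothelium. The arterial sum was 299.7, 497 and 118 CPM in the same groups, so the vascular cells were highest in the venous sum and between the others in the arterial sum.

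Many cells lay close to the limits. Of the arterial-gene-high cells 22 had exactly 3 arterial genes and 15 led by 1 gene, and of the venous-gene-high cells 32 had exactly 3 and 26 led by 1. Both lists reached 3 genes in 86 cells (16.1%), 15 of them tied. Depth moved with the class, with a median of 30108 UMIs in arterial-gene-high, 44731 in venous-gene-high and 27989 in the remaining cells. With every cell thinned to 5000 UMIs the classes held 20 and 28 cells (3.75 and 5.24%), and venous-gene-high cells were more numerous in 4 of 6 libraries. Thinned to 20000 UMIs, which left out 62 cells, they were 14.6 and 54.9%, and classed by a 2-fold difference in summed level, which needs no count of genes, 21.0 and 59.9%.

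**Figure D4:**
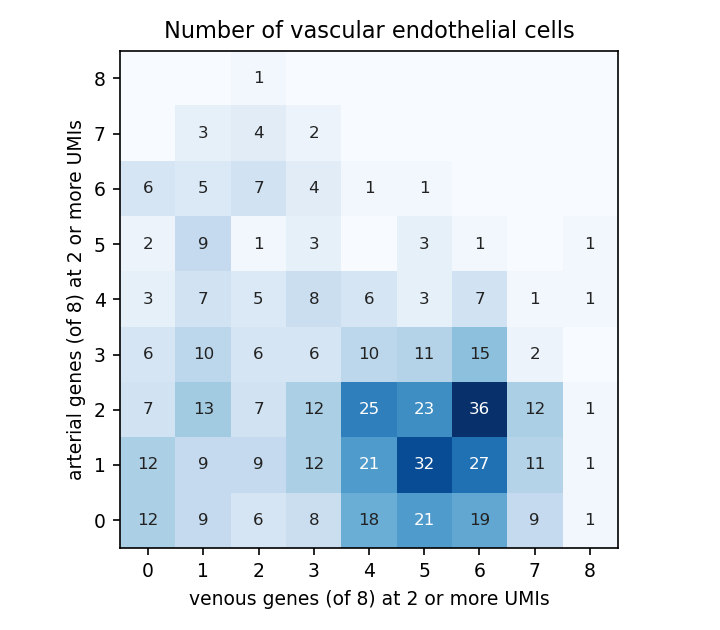
Number of vascular endothelial cells (figure in each square, darker for more) by how many of the 8 venous genes (x axis) and 8 arterial genes (y axis) they held at 2 or more UMIs. Most cells lie at 3 to 7 venous and 0 to 3 arterial genes, and 12 cells held none of either list.

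Listed arterial and venous genes that were not used for the classes went the same way as the class in most cases. Over all genes, 204 of 6516 (3.13%) were counted as higher in arterial-gene-high cells and 75 of 6314 (1.19%) as higher in venous-gene-high cells. Only library 2 had 20 cells of both classes, so the library condition rested on it alone. When all 6 libraries had to show the difference, 39 (0.599%) and 17 (0.269%) genes were left. Of 14 other arterial genes 5 were higher in arterial-gene-high cells and 0 lower, with all 14 pooled ratios above 1 and a median of 2.86, against 1.01 over all genes. Of 11 other venous and capillary genes 4 were lower and 0 higher, with 2 of the 11 pooled ratios above 1 and a median of 0.416. When all 6 libraries had to show it, 1 arterial gene (Mecom) and 1 venous gene were left. The other arterial genes were not particular to vessels as a list. In vascular over Nfatc1/Npr3-high endothelium, 3 of 11 measured had a ratio above 1, with a median of 0.625.

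Among the arterial genes, Mecom, a zinc finger factor, was 191, 349 and 453 CPM over libraries in arterial-gene-high cells against 70.4, 108.01 and 147 CPM, a pooled ratio of 3.14 (2.91 to 3.37). Mecom was also high in Nfatc1/Npr3-high endothelium, found at 1 or more UMIs in 96.3% of those cells and 93.6% of arterial-gene-high cells. Its level was 120 CPM in endothelial cells with no Nfatc1 or Npr3 UMI and 355 CPM in those with 20 or more. Vegfc, the ligand of Flt4, was 76.6 against 13.1 CPM, higher in 6 of 6 libraries. Vegfc was also counted as lower in vascular endothelium than in Nfatc1/Npr3-high endothelium. Hey2, a Notch target, was 15.6 against 0.695 CPM, and Cxcr4, the CXCL12 receptor, 13.1 against 0.174 CPM, a ratio of 75.6 (24.2 to 381) that rests on 3 UMIs in venous-gene-high cells. Both were under the 20 CPM limit. Notch1 was only 1.37-fold higher (1.19 to 1.58). Among the venous genes, Tfpi, an inhibitor of coagulation, was 126, 169 and 187 CPM over libraries in venous-gene-high cells against 47.5, 71.1 and 127 CPM, a pooled 170 against 70.7 CPM, and the highest arterial-gene-high library overlapped the lowest venous-gene-high library. Nr2f1, the relative of Nr2f2, was 21.2 against 4.07 CPM and higher in 6 of 6 libraries. Cldn5 was also higher in venous-gene-high cells, at 497 against 213 CPM, in 6 of 6 libraries.

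Unlisted genes led both sides. In arterial-gene-high cells the WNT ligand Wnt11 was 26.0 against 0.695 CPM, the membrane protein gene Gpm6b 49.4 against 3.07 CPM, the hyaluronan synthase Has2 42.2 against 3.01 CPM, Sox6 109.8 against 7.88 CPM and the caveolar protein gene Cavin2 46.9 against 3.47 CPM, each higher in 6 of 6 libraries. Cavin2 was also counted as lower in vascular endothelium than in Nfatc1/Npr3-high endothelium. Dkk2, a WNT antagonist, was 20.02 against 0.695 CPM with a library median of 5.79 CPM and 90.6 CPM in library 1, which held most of it. In venous-gene-high cells Adgrg3 was 33.5 against 3.13 CPM, Gpr183 34.0 against 3.13 CPM, D030007L05Rik 61.6 against 6.26 CPM, Adamts9, a matrix protease, 73.4 against 9.07 CPM, Abcc9 35.3 against 4.38 CPM and Tll1, a relative of BMP1, 89.9 against 12.8 CPM, each higher in 6 of 6 libraries. Lck, Sh2d4b and Prl3b1 were also among the 10 highest ratios, Prl3b1 at 24.2 CPM against a single UMI (interval of the ratio 13.8 to 3064).

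Endocardial genes were mostly higher in the arterial class. Of 13 measured endocardial genes 10 were higher in arterial-gene-high cells and 0 lower, with a median ratio of 3.70. Over all genes 3.13% were counted as higher. Of the 13, 2 (Nrg1 and Gata6) showed the difference in all 6 libraries, where 0.599% of all genes did. Tmem100 was 0, 37.1 and 179 CPM over libraries against 0, 0.578 and 3.09 CPM, with no UMI in the 8 arterial-gene-high cells of library 4 and the highest level in library 2. Tbx20, a cardiac T-box factor, was 21.7, 118 and 224 CPM against 9.84, 13.9 and 30.2 CPM. Gata5 was 26.3 against 1.795 CPM and Gata6 66.9 against 13.8 CPM. At least 3 of the 8 endocardial genes were present in 39.4% of arterial-gene-high cells, 10.6% of venous-gene-high cells and 46.5% of the rest. Among the 28 arterial-gene-high and 124 venous-gene-high cells that had no Nfatc1 or Npr3 UMI, the log2 ratio of arterial-gene-high over venous-gene-high cells was 3.76 for Tbx20 (3.23 in all cells), 5.44 for Tmem100 (6.05) and 1.18 for Mecom (1.65), but it turned to -0.035 for Vwf, an endocardial list gene (1.89).

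Some markers of mesenchyme and of red blood cells were also higher in arterial-gene-high cells. The summed level of the 5 mesenchyme markers was 58.0 to 221 CPM over libraries, against 28.8 to 77.4 CPM in venous-gene-high cells, and 2 of 4 measured, Twist1 and Dlk1, were counted as higher. Over all genes 3.13% were counted as higher, and the library condition rested on library 2 alone. The 5 erythroid markers summed to 85.2 to 53972 CPM against 63.3 to 8239 CPM, with 1 of 4 measured (Hbb-bh1) counted as higher. The direction of Hbb-bh1 was not stable, since its log2 ratio turned to -3.87 without library 4 and to -3.56 with at least 4 scoring genes. Without the cells that carried each list's markers, the pooled sums were 93.03 against 23.6 CPM for mesenchyme and 115.95 against 75.2 CPM for erythroid genes. Cardiomyocyte markers summed to 1122 against 613 CPM, and to 72.8 against 28.1 CPM without the cells that carried them, though 0 of 4 measured was counted. Without the cells that carried markers of any other type, the log2 ratio was 4.22 for Tbx20 and 6.31 for Tmem100.

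**Figure D5:**
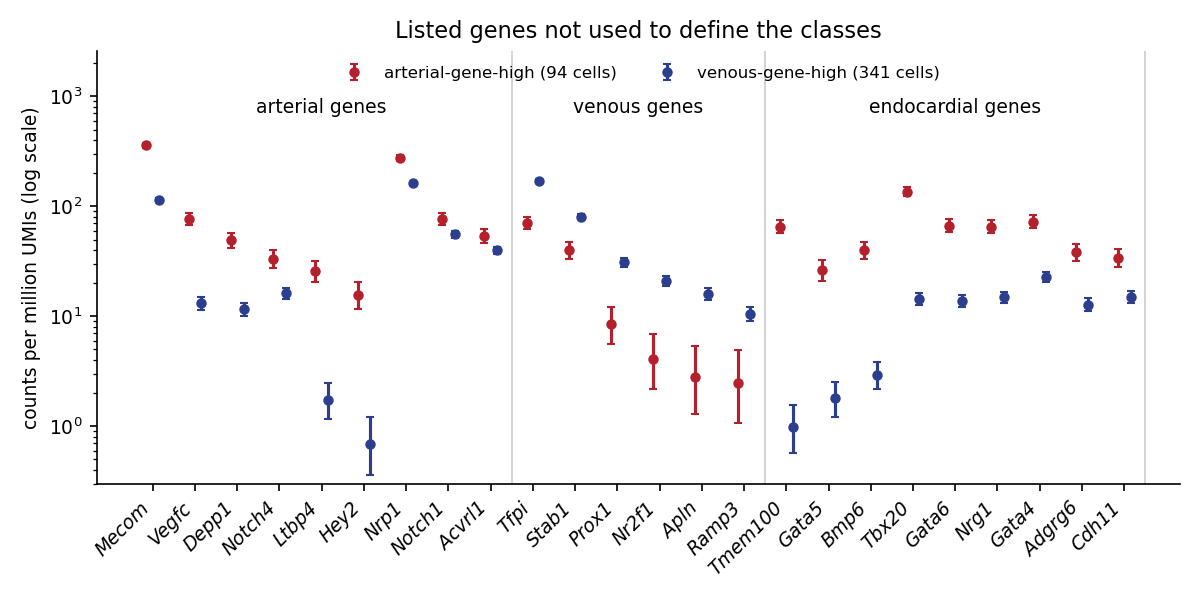
CPM on a log axis (y), pooled over libraries, for a selection of listed genes not used for the classes (x), in 94 arterial-gene-high and 341 venous-gene-high cells. Bars are exact 95% Poisson intervals for counting error. Arterial list genes and endocardial list genes are higher in arterial-gene-high cells, and the venous genes shown are higher in venous-gene-high cells, with Tfpi at 170 against 70.7 CPM. Of 11 measured other venous and capillary genes, 2 went the other way in the pooled ratio.

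Signalling genes differed between the classes in part. By the same count, which gave 3.13% of all genes as higher, 2 of 11 VEGF and angiopoietin genes, 1 of 10 Notch genes and 1 of 8 flow genes were higher in arterial-gene-high cells and 0 lower. Of 15 BMP and TGF-beta genes, 6 were higher, among them Smad6 (102 against 16.6 CPM), Bmper (42.5 against 3.59 CPM) and Bmp6 (39.7 against 2.95 CPM), and 1, the ligand Bmp4, was lower (16.6 against 36.1 CPM). Of 6 tip cell genes 3 were higher, with Esm1 at 26.6 against 2.90 CPM and Igfbp3 at 149 against 42.8 CPM, but Apln, the apelin ligand and also a tip cell gene, was 2.81 against 16.04 CPM. In these 5 lists 0 genes showed the difference in all 6 libraries. Under that condition 0.599% of all genes were higher in arterial-gene-high cells and 0.269% lower, so 0 is near those shares for short lists. Flow-responsive Klf2 was 253 against 260.2 CPM and Nos3 29.7 against 33.6 CPM, while endothelin (Edn1) was 66.6 against 10.1 CPM. Etv2 was 80.2, 118 and 484 CPM over libraries in arterial-gene-high cells against 7.26, 28.7 and 92.1 CPM. With every cell thinned to 5000 UMIs and classed again, which left 20 and 28 cells, the log2 ratio turned for Etv2 (-1.84) and for Bmp4 (0.49). Cdkn1c, high in Nfatc1/Npr3-high endothelium, was 1231 against 228 CPM, and it was the 1 gene counted among 12 cell cycle genes, whose median ratio was 0.934. Mki67, a proliferation gene, was 75.7 against 139 CPM, under the 2-fold limit.

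Lymphatic genes appeared in part. Prox1, the factor that sets lymphatic identity, was 26.6 CPM in vascular endothelium against 9.21 CPM in other passing barcodes, at 14.0, 22.9 and 46.8 CPM over libraries. It was not 2-fold higher in every library and so was not counted. Prox1 was present at 2 or more UMIs in 79 cells (14.8%), of which 92.4% also held Nr2f2, 77.2% Flt4 and 6.33% Lyve1. Among the cells without Prox1 these shares were 69.2, 53.2 and 3.08%. At 1 or more UMIs Prox1 was found in 28.5% of vascular cells, 29.4% of Nfatc1/Npr3-high cells and 58.0% of cardiomyocyte-marked barcodes. When thinned to 5000 UMIs these were 10.1, 5.95 and 13.4%. Heart muscle is known to express Prox1. It was higher in venous-gene-high than in arterial-gene-high cells, at 30.9 against 8.45 CPM. Pdpn, a later lymphatic marker, was found in 4.49% of vascular cells and 48.0% of cardiomyocyte-marked barcodes (0.375 and 11.9% when thinned to 5000 UMIs), and nothing is read from it.

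Blood-forming genes were of 2 kinds. Lmo2, Tal1, Lyl1, Hhex and Kit, which endothelial and blood progenitors share, were 5 of 7 measured genes counted as higher than in other passing barcodes, and 1, Ikzf2, was lower (8.28 against 31.0 CPM), with Lmo2 at 224, 269 and 369 CPM over libraries and at most 18.0 CPM in those summed barcodes. Over all genes 6.77% were counted as higher and 5.37% as lower. The Nfatc1/Npr3-high endothelium within the sum had 86.3 CPM of Lmo2. Against that endothelium 0 of 7 measured blood-forming genes was counted in either direction, with a median ratio of 1.53. There 0.64% of all genes were counted as higher and 2.01% as lower, so 0 of 7 is near those shares. Runx1, which marks the endothelial to blood transition, was 1.15, 13.9 and 73.5 CPM over libraries, and Pf4 1.75, 313 and 2389 CPM. Most of these last counts came from 11 cells with at least 3 myeloid and megakaryocyte genes, 4 in library 3, 1 in library 4, 4 in library 5 and 2 in library 6, and 10 of the 11 had exactly 4 of the 6 rule genes. They held 12095 of 12140 Pf4 UMIs and 371 of 403 Runx1 UMIs. Without them Pf4 was 1.95 CPM in place of 513 CPM, Runx1 1.39 in place of 17.03 CPM, and Lmo2 266 in place of 264 CPM. Pf4 headed the arterial-gene-high genes by ratio (177 against 1.97 CPM), with a library median of 2.79 and a highest library of 931 CPM, and its log2 ratio of 6.49 was 0.56 without the cells that carried markers of another type. Runx1 was present at 2 or more UMIs in 14 of 534 cells and Gfi1, another gene of that transition, in 0, which allows a share of cells with 2 UMIs of up to 0.562%.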

How the data were processed

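Single-cell suspensions were made from microdissected tissue with an enzyme and run on the Chromium 3′ kit, version 3, per the labels' protocols. The authors deposited 1 matrix of raw UMI counts for 32285 genes and 53362 barcodes, and per the file headers the software was Cell Ranger 5.0.0. The submitters' processing notes also name CASAVA 1.8, Seurat 4 and the build mm10. How cells were called, and whether doublets had been removed, is not given in the sources used here. No doublet caller was run, and barcodes with markers of another cell type were counted instead.

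Raw counts were summed over cells per group and library and scaled to CPM with Python 3.11.15, numpy 2.4.6, scipy 1.17.1 and pandas 2.3.3. These are 3′ counts with no scaling by gene length, so levels were compared between cells. Sums of different genes were set against each other only for the 8 arterial and 8 venous genes, by library and in the classes by summed level. CPM carry exact Poisson, shares Clopper-Pearson and ratios conditional binomial 95% intervals, which cover counting error only. Libraries are unmapped and cells were chosen by their counts, so no p-value was computed. Lists count genes at 10 CPM or more in either group. The 8 scoring genes per class, and the genes of the rule, were left out where they had defined a group. Shares over all genes are of genes at 20 CPM or more in the higher group. At the 10 CPM limit of the lists, 434 were higher and 353 lower of 9333 genes against other passing barcodes. These were 41 and 132 of 8783 against Nfatc1/Npr3-high endothelium, and 204 and 75 of 8835 for arterial-gene-high over venous-gene-high cells. Coordinates are from the GENCODE M21 gene list of GRCm38. The counting script was tested on simulated counts.

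Named genes are those of the lists, the 15 with the highest ratio over all other passing barcodes, and the 10 highest and 10 lowest in each other comparison. A few further genes were named after their values were seen, and a gene that met the rule is not reported here. The cells, genes and lists were chosen with earlier results of these data known.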

Additional observations from a re-analysis of the deposited data

How the results depend on the processing

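No paired analysis was possible because the libraries carry no sample or replicate label. Leaving out each library in turn gave vascular shares of 1.39 to 1.55%, arterial-gene-high shares of 16.5 to 19.2% and venous-gene-high shares of 60.4 to 66.1%. It gave 434 to 454 genes higher than in other barcodes, 42 to 48 higher and 131 to 144 lower than in Nfatc1/Npr3-high endothelium, and 193 to 221 and 76 to 97 genes between the classes. Without library 2, without Nfatc1 or Npr3 UMIs, at 5000 or 20000 UMIs, and with 4 scoring genes, no library had 20 cells of both classes, so no gene count between them could be given.

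The vascular share was 1.27% with 1000 detected genes, 1.18% with 5 of 6 rule genes, 0.489% without Nfatc1 or Npr3 UMIs, 1.30% without other cell types' markers and 1.34% without shared barcode sequences. The venous-gene-high share was 72.0% with 5 of 6 rule genes, 70.5% without Nfatc1 or Npr3 UMIs, 5.24% at 5000 and 54.9% at 20000 UMIs, and 57.9% with 4 scoring genes. The arterial-gene-high share was 3.75% at 5000 UMIs, 21.3% with 2 scoring genes and 13.5% with 4. Genes higher than in other barcodes numbered 725 at 1.5-fold and 258 at 50 CPM. Against Nfatc1/Npr3-high endothelium 113 were higher at 1.5-fold, 108 by the pooled ratio and 21 at 50 CPM, and 260 were lower at 1.5-fold, 237 by the pooled ratio and 87 at 5000 UMIs. Genes higher in arterial-gene-high and in venous-gene-high cells numbered 457 and 279 at 1.5-fold, 82 and 31 at 50 CPM, 39 and 17 with 8 cells per class and library, 104 and 29 with 2 scoring genes, and 126 and 41 with classes by summed level. With 8 cells, 6 libraries entered the library condition, and with 2 scoring genes or summed level 4 did, in place of 1, so 2 choices changed together. These 3 settings, 4 scoring genes and 20000 UMIs were chosen after seeing the data.

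For single genes, 4047 values under an alternative stayed within the counting interval, 1831 moved and 6 changed sign, all in log2 ratios of arterial-gene-high over venous-gene-high cells. Vwf was -0.035 without Nfatc1 or Npr3 UMIs. At 5000 UMIs, with 20 against 28 cells, Etv2 was -1.84, Slit2 -0.25 and Bmp4 0.49. Hbb-bh1 was -3.56 with 4 scoring genes and ran from -3.87 (without library 4) to 7.11 (without library 1) when libraries were left out. The cause was not tested.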

Other observations

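Genes of cell guidance and of mesenchyme differed from all other passing barcodes in both directions, where 6.77% of all genes were counted as higher and 5.37% as lower. Of 12 guidance genes, with a median ratio of 1.05, 2 were counted as higher, Plxnd1 at 157 against 9.61 CPM and the ephrin Efna1 at 50.4 against 9.29 CPM. The 4 counted as lower were secreted ligands, namely Sema3c (2.75 against 41.5 CPM), Sema3d (3.42 against 28.2 CPM), Slit2 (36.2 against 142 CPM) and Slit3 (52.4 against 210.1 CPM). Cxcl12, a chemokine, was 6.97 against 65.9 CPM. Of 10 genes tied to the endothelial to mesenchymal transition, Zeb1 (294 against 104 CPM) and Vim (2399 against 664 CPM) were higher, and Twist1, Cdh2 and Sox9 were lower. Fn1, which encodes fibronectin, was lower than in Nfatc1/Npr3-high endothelium, at 189 against 931 CPM, and Fabp5, a fatty acid binding protein, was 384 against 1097 CPM.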
